A study of Mus musculus with 21 samples.

Results

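The genes described here encode the 4 adult hemoglobin chains Hba-a1, Hba-a2, Hbb-b1 and Hbb-b2, the red cell heme enzyme Alas2, and the pituitary hormone chains Gh, Prl, Cga and Tshb. They were chosen by name, as possible signs of blood or of pituitary tissue in brain punches. All 9 symbols were found among the 21654 genes of the deposited count table, and all 9 averaged at least 5 reads over the libraries, the filter used for testing.

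The study followed what a change of diet does to wakefulness and sleep in mice, and measured RNA in the ventral hypothalamus. Each of the 21 libraries held polyadenylated RNA from hypothalamic punches of 2 male C57BL/6J mice, pooled, made with a stranded kit. The mice were 12 to 14 weeks old when acquired, before the diets began. They had been kept awake for 3 h with new objects and were killed by cervical dislocation at ZT6, and the brains were snap-frozen. RC NoDS mice (n = 5) stayed on regular chow, HFD NoDS mice (n = 5) stayed on a high-fat diet, RC → HFD mice (n = 6) went from chronic chow to a short time on the high-fat diet, and HFD → RC mice (n = 5) went the other way. Every library summed to between 16380781 and 16390598 reads, since the authors had re-sampled them to a common depth, and held between 15686 and 18247 genes with at least 1 read. A gene with 0 reads in a library could still hold up to 3 reads' worth of RNA there. That limit covers counting error only, since the reads carry no molecular identifiers and so do not count molecules.

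Red cells carry hemoglobin built from alpha and beta globin chains around heme, and young red cells keep globin messenger RNA after they have lost the nucleus. Alas2 makes the first committed step of heme synthesis in the red cell lineage, while other cells use the related enzyme Alas1. In the anterior pituitary, somatotropes make growth hormone from Gh, lactotropes make prolactin from Prl, and thyrotropes join the common alpha chain from Cga with the beta chain from Tshb to form thyrotropin. The pars tuberalis, a thin sheet of pituitary tissue wrapped around the median eminence directly beneath the ventral hypothalamus, also makes Cga and Tshb.

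The label of these genes as signs of blood and pituitary tissue was compared with the levels of other marker genes. Pomc, the precursor of melanocortin peptides, was at 303.7 to 717 RPKM (reads per kilobase of exon, scaled to the library total). Snap25, a protein of nerve endings, was at 71.3 to 107. The authors had kept only punches enriched in Agrp and Pomc over Hcrt, so a high level of Pomc followed from that selection. Pomc is also a gene of the intermediate lobe of the pituitary, and Snap25 is a marker of neurons in general. Neither tells the ventral hypothalamus from other tissue here. Of the further red cell genes Bpgm (1282 reads on average) and Slc25a37 (379) were plainly detected, and both are also active in other cells, while the other 11 averaged 5 reads or fewer. Slc4a1, the anion exchanger of the red cell membrane, had 0 reads in 14 of 21 libraries and at most 19, in HFD → RC replicate 13. Hemgn, a nuclear protein of the red cell lineage, had 0 reads in 20 libraries. Markers that define the main body of the anterior pituitary were also at or near 0. Ghrhr, the somatotrope receptor for growth hormone releasing hormone, had 0 reads in 16 libraries, and Gnrhr, the gonadotrope receptor, had 0 in 14. Pou1f1 was not analysed here. The word carryover names a source, and where the reads of the 9 genes came from was not tested.

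4 libraries stood apart before any comparison of diets. HFD → RC replicate 13 had the highest count of all 21 libraries for 6 of the 9 genes, namely Hba-a1, Hba-a2, Hbb-b1, Hbb-b2, Alas2 and Gh. By the paper's read totals this library also had the fewest reads before re-sampling, and the others were drawn down to the smallest. Whether its lower depth bears on its counts was not tested. RC → HFD replicate 12 had the highest count of Prl. With RC NoDS replicates 2 and 6, these were the 4 libraries that held over 100 reads of Gh or Prl. HFD NoDS replicate 19 was the only library with 0 reads of Cga.

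Hbb-b1, a beta chain, had the most reads of the 9 genes. It had 1799, 2490, 2249, 1986 and 1739 reads in RC NoDS replicates 1, 2, 3, 5 and 6. RC → HFD libraries had a lowest count of 589, a median of 977.5 and a highest of 1106 reads of Hbb-b1. In HFD → RC replicates 13 to 17 the counts of Hbb-b1 were 3399, 1299, 1326, 327 and 2002, and in HFD NoDS replicates 19, 20, 21, 23 and 24 they were 818, 1956, 849, 1581 and 1010. The 6 RC → HFD libraries all lay below the 5 RC NoDS libraries, whereas HFD → RC spanned the whole range, with both the highest and the lowest library of the study. RC NoDS libraries averaged 2053 ± 315 reads (SD, n = 5) and RC → HFD libraries 892 ± 236 (n = 6). The averages were 1671 ± 1136 for HFD → RC and 1243 ± 503 for HFD NoDS (n = 5 each).

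Hbb-b2, the other beta chain, had 385, 483, 420, 329 and 309 reads in the RC NoDS libraries. Its RC → HFD counts had a lowest of 92, a median of 138.5 and a highest of 184. The counts of Hbb-b2 were 545, 169, 216, 69 and 306 in HFD → RC and 121, 509, 132, 239 and 173 in HFD NoDS. As for Hbb-b1, no RC → HFD library reached the RC NoDS libraries, and 4 of 5 HFD NoDS libraries lay below all RC NoDS libraries. HFD NoDS replicate 20 lay above all RC NoDS libraries for Hbb-b2, but within their range for Hbb-b1.

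The alpha chains ranked the libraries much as the beta chains did. Hba-a1 had 704, 928, 934, 786 and 700 reads in RC NoDS, a range of 239 to 522 with a median of 399.5 in RC → HFD, 1670, 489, 617, 169 and 654 in HFD → RC, and 376, 1146, 238, 790 and 462 in HFD NoDS. Hba-a2 had 501 to 654 reads in RC NoDS, 117 to 394 in RC → HFD, 101 to 976 in HFD → RC and 196 to 710 in HFD NoDS. For both alpha chains every RC → HFD library was below every RC NoDS library, and the other groups overlapped with each other. Over the 21 libraries the 6 pairs among the 4 chains had Pearson r between 0.92 and 0.96 and Spearman rho between 0.92 and 0.95 on log2(count + 1). The libraries share a common depth, and the pairs of near-identical genes also share the choice of where a read was placed.

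Summed over the 4 chains, hemoglobin reads made up 0.0166% ± 0.00868 (SD, n = 21) of a library. The sum was 3410, 4457, 4257, 3602 and 3276 reads in RC NoDS, and 1037 to 2092 with a median of 1853 in RC → HFD. It was 6590, 2274, 2602, 666 and 3422 reads in HFD → RC and 1511, 4321, 1512, 3092 and 1997 in HFD NoDS. RC NoDS was the group with the narrowest spread for its size, 3800 ± 526 (n = 5), and HFD → RC had the widest, 3111 ± 2187 (n = 5). Without HFD → RC replicate 13 the mean of that group was 2241. Fewer red cells and less globin RNA per cell cannot be told apart in such tissue samples.

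**Figure D1:**
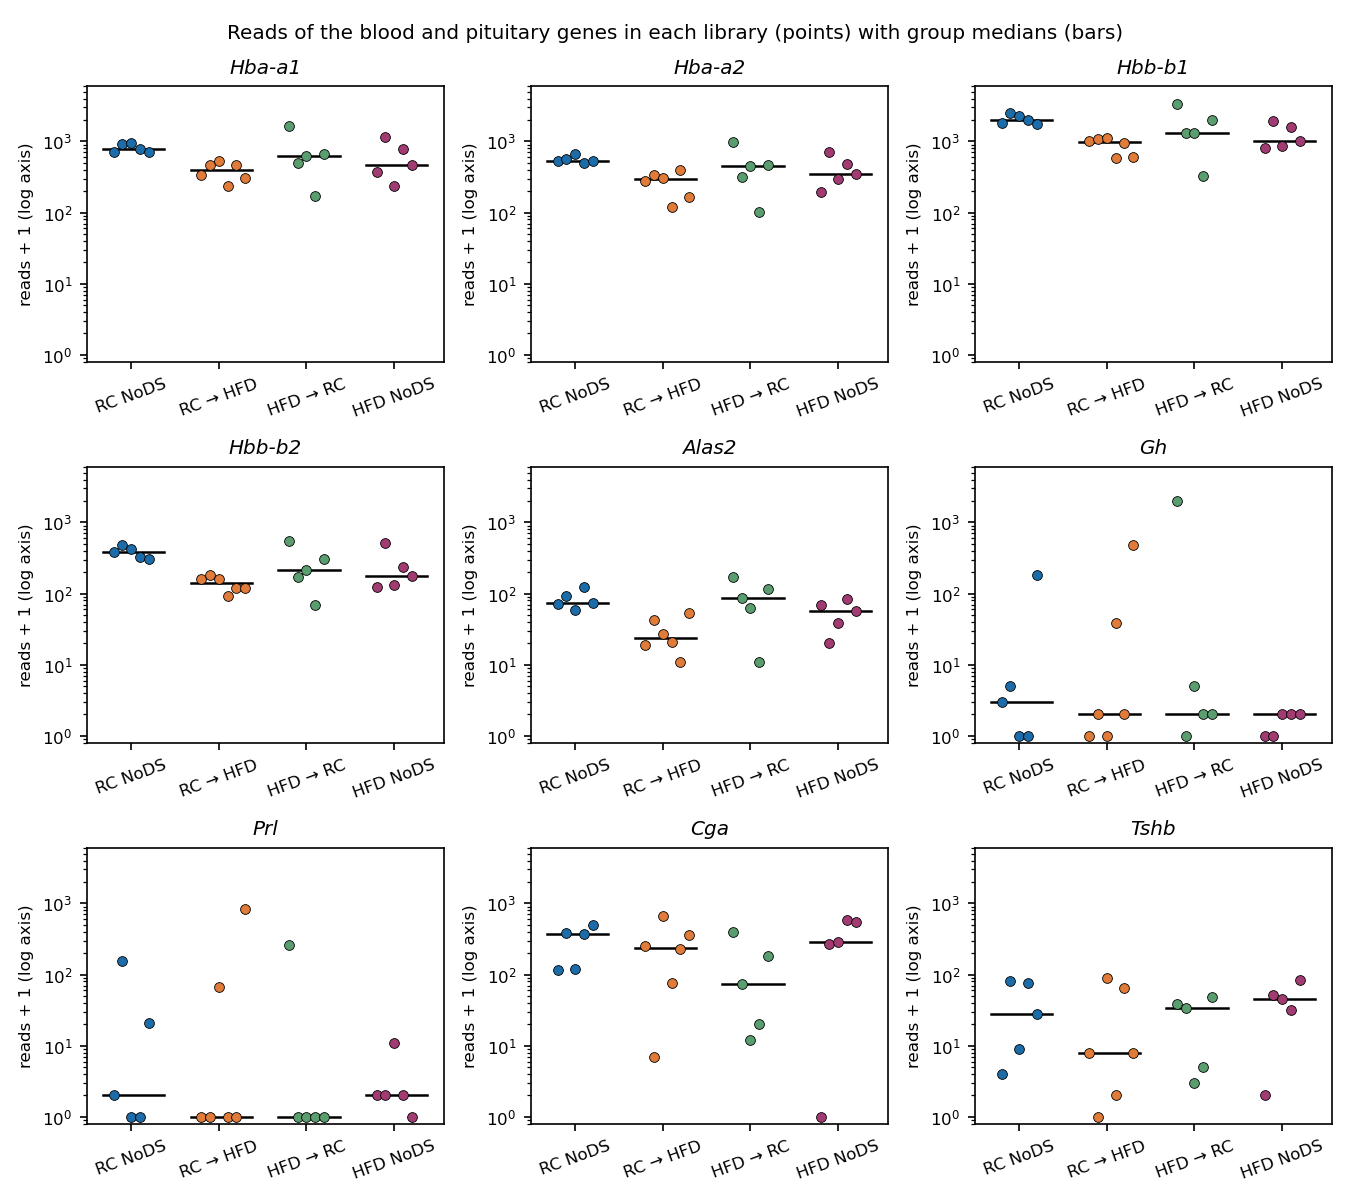
Reads + 1 of each of the 9 genes (vertical axes, log scale) in the 4 diet groups (horizontal axes), with 1 point per library and bars at the group medians. The hemoglobin genes and Alas2 sit lower in every RC → HFD library than in every RC NoDS library, while Gh and Prl sit near 0 apart from a few libraries.

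The 2 alpha genes and the 2 beta genes are so alike that the split of reads within each pair is uncertain. In the NCBIM37 assembly the coding sequences of Hba-a1 and Hba-a2 were both 429 bases long and differed at 1 base, C381T, and those of Hbb-b1 and Hbb-b2 were both 444 bases long and differed at 1 base, C417T, counted from 1 at the first base of the start codon with the first-named gene's base first. The longest identical stretches were 380 and 416 bases. Hba-a2 took 40.3% ± 4.89 (SD, n = 21) of the alpha reads, and Hbb-b2 took 14.5% ± 2.21 of the beta reads. The ratio of alpha to beta reads was 0.617 ± 0.0859 (SD, n = 21). The lines that follow show 51 coding bases around each difference, with the differing base in capitals, since these are the only coding letters that tell the members of a pair apart. The stretches lie at chr11:32184318-32184368 (plus strand) for Hba-a1, chr11:32197135-32197185 (plus) for Hba-a2, chr7:110975181-110975231 (minus) for Hbb-b1 and chr7:110961172-110961222 (minus) for Hbb-b2, read 5′ to 3′ along the gene.
Hba-a1: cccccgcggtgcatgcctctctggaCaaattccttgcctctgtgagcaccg
Hba-a2: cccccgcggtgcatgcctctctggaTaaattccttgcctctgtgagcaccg
Hbb-b1: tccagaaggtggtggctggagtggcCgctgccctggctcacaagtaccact
Hbb-b2: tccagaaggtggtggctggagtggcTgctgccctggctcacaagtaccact

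Alas2 had far fewer reads than the chains its product serves. Its counts were 71, 90, 57, 122 and 72 in RC NoDS, and 10 to 53 with a median of 23 in RC → HFD. They were 170, 87, 62, 10 and 115 in HFD → RC and 67, 19, 38, 82 and 55 in HFD NoDS. Every RC → HFD library lay below every RC NoDS library, and 4 of 5 HFD → RC libraries lay above every RC → HFD library. Per 1000 hemoglobin reads there were 23.1 ± 11.3 reads of Alas2 (SD, n = 21), with a range from 4.40 to 44.5. Alas2 and the 4 chains had Pearson r between 0.54 and 0.68 and Spearman rho between 0.55 and 0.69 over the 21 libraries, and without the 2 libraries farthest from the median of the chain r ran from 0.30 for Hba-a2 to 0.73 for Hbb-b2. Alas2 overlaps Apex2 on the opposite strand. The libraries were stranded, but whether the counting used the strand is not stated, so its counts are uncertain.

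The first comparison asked whether a long time on each diet, with no switch, left different levels. Hbb-b1 was at a log2 fold change of −0.71 (SE 0.326) in HFD NoDS relative to RC NoDS, with an adjusted p of 0.772, and 4 of 5 HFD NoDS libraries lay below all RC NoDS libraries. Each SE of a fold change is its absolute value divided by the square root of the F statistic of its test. It is thus worked back from the test, and for genes near 0 reads in a group it is no sampling error. The log2 fold changes were −0.70 for Hbb-b2, −0.41 for Hba-a1, −0.43 for Hba-a2 and −0.65 for Alas2. By edgeR 0 of 9 members passed the adjusted p threshold of 0.15, the level the study used, beside 0.063% of 15884 genes tested (10 genes). DESeq2 and limma-voom also called 0 members, beside 26 and 9 of 15884 genes. At an unadjusted p under 0.05 the edgeR count was 2 of 9, Hbb-b1 and Gh, beside 6.43% of all genes. By DESeq2 0, by limma-voom 2 and with robust dispersion 0 had such a p, beside 1103, 1154 and 998 of 15884 genes. With only these 2 groups fitted 4 did, beside 926 of 15939 genes. The edgeR count of 2 ran from 0, without HFD NoDS replicate 19, 21 or 24, to 3 with each library left out, while the number of all genes at that p ran from 544 to 1505. The median log2 fold change of the 9 genes was −0.65, beside 0.00 for all genes tested. With each library left out the value ran from −1.20 to −0.53 for Hbb-b2 and from −0.94 to −0.59 for Hbb-b1, lowest without HFD NoDS replicate 20 and highest without replicate 19. It ran from −0.79 (without HFD NoDS replicate 20) to −0.21 (without replicate 21) for Hba-a1 and from −0.73 (without replicate 20) to −0.25 (without replicate 19) for Hba-a2.

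The second comparison set the 2 switched groups against each other. Alas2 was at a log2 fold change of 1.65 (SE 0.479) in HFD → RC relative to RC → HFD, with an adjusted p of 0.717, and ranked 37 of 15884 genes by p. Hbb-b1 was at 0.90 (SE 0.312, adjusted p = 0.908), Hbb-b2 at 0.91, Hba-a1 at 0.89 and Hba-a2 at 0.79. By edgeR 0 of 9 members passed, beside 0.0126% of all genes (2 genes). DESeq2 and limma-voom called 0 members, beside 7 and 1 of 15884 genes. At an unadjusted p under 0.05 the edgeR count was 5 of 9, beside 5.02% of all genes. It was 4 by DESeq2, 1 by limma-voom and 3 with robust dispersion, beside 886, 853 and 779 of 15884 genes. The 5 by edgeR were the hemoglobin genes and Alas2, which are not independent of each other. The median over the 9 genes was 0.89, beside 0.00 for all genes tested. The HFD → RC group held both extreme libraries, and each moved these values. Without replicate 13 the log2 fold changes were 0.31 for Hba-a1, 0.31 for Hba-a2, 0.47 for Hbb-b1, 0.45 for Hbb-b2 and 1.28 for Alas2. Without replicate 16, 2 members passed, Hbb-b1 (log2 fold change 1.17, adjusted p = 0.0725) and Alas2 (1.94, adjusted p = 0.0746), beside 0.246% of genes. Over all settings tried, the adjusted p ranged from 0.0725 to 1 for Hbb-b1 and from 0.0746 to 1 for Alas2.

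Across all 4 groups the F statistic was 5.77 for Hbb-b2 (adjusted p = 0.414), 5.35 for Hbb-b1 (0.453), 5.32 for Gh (0.453) and 4.75 for Alas2 (0.518), and it was 0.925 for Cga (0.918) and 0.250 for Tshb (0.984). With each library left out the highest F was 9.51 for Hbb-b2 (without HFD NoDS replicate 20), 11.9 for Hbb-b1 and 8.21 for Alas2 (both without HFD → RC replicate 16) and 9.01 for Gh (without RC → HFD replicate 12), and by limma-voom F for Gh was 0.482. It ran from 0.517 to 2.28 for Cga (highest without HFD → RC replicate 13) and from 0.134 to 0.761 for Tshb (highest without RC → HFD replicate 9). By edgeR 0 of 9 members passed, beside 0.126% of genes (20 genes). DESeq2 and limma-voom called 0 members, beside 131 and 13 of 15884 genes. At an unadjusted p under 0.05 the edgeR count was 7 of 9, all but Cga and Tshb, beside 7.07% of all genes. It was 3 by DESeq2, 3 by limma-voom and 4 with robust dispersion, beside 1340, 1254 and 1095 of 15884 genes. The edgeR count of 7 ran from 4, with RC NoDS replicate 5 or RC → HFD replicate 12 left out, to 7, while the number of all genes at that p ran from 853 to 1355. Without HFD → RC replicate 16, 3 members passed, Hbb-b1 (adjusted p = 0.0262), Hbb-b2 (0.116) and Alas2 (0.116), beside 0.498% of genes. Without HFD NoDS replicate 20, 1 member passed, Hbb-b2 (adjusted p = 0.110), beside 0.208% of genes. Over all settings tried, the adjusted p ranged from 0.0262 to 0.918 for Hbb-b1, from 0.110 to 0.844 for Hbb-b2 and from 0.116 to 0.893 for Alas2.

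The other 4 pairs of groups were taken up after the data had been seen, and they share libraries with the comparisons above. From RC NoDS to RC → HFD the log2 fold change was −1.45 for Hbb-b2 (SE 0.350, adjusted p = 0.442), −1.18 for Hbb-b1 (SE 0.312, adjusted p = 0.561), −1.53 for Alas2 (SE 0.478, adjusted p = 0.746) and −1.03 for both Hba-a1 and Hba-a2. In these 5 of 9 genes all 6 RC → HFD libraries lay below all 5 RC NoDS libraries, a pattern that 0.642% of the 15884 genes showed (102 genes). By edgeR 0 of 9 members passed in the fit to all 21 libraries, beside 0.0315% of genes (5 genes). DESeq2 and limma-voom called 0 members, beside 119 and 5 of 15884 genes. At an unadjusted p under 0.05 the edgeR count was 5, beside 5.55% of all genes. By DESeq2 and by limma-voom the count at that p was also 5, beside 931 and 993 of 15884 genes. The call depended on which libraries set the spread. In a fit to these 11 libraries alone, 4 members passed, Hbb-b2 (adjusted p = 0.000267), Hbb-b1 (0.000432), Hba-a1 (0.00557) and Hba-a2 (0.111), beside 0.12% of genes. Without HFD → RC replicate 16, Hbb-b1 (adjusted p = 0.0455) and Hbb-b2 (0.106) passed, beside 0.0441% of genes, and without HFD NoDS replicate 20 Hbb-b2 passed (0.0915), beside 0.0567% of genes. Over all settings tried, the adjusted p ranged from 0.000267 to 1.00 for Hbb-b2 and from 0.000432 to 1.00 for Hbb-b1.

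In the remaining pairs edgeR called 0 of 9 members, and so did DESeq2 and limma-voom. The share of all genes called by edgeR was 0.0252% for HFD NoDS v HFD → RC, 0.157% for RC NoDS v HFD → RC and 0.0063% for RC → HFD v HFD NoDS. In that order DESeq2 called 67, 155 and 44 of 15884 genes, and limma-voom 9, 6 and 1. With each library left out, the number of all genes called by edgeR ran from 0 to 9, from 1 to 174 and from 1 to 7 in that order. At an unadjusted p under 0.05 the counts were 2, 1 and 3 of 9 members in that order, beside 7.4%, 7.01% and 6.92% of all genes. They were 0, 0 and 0 by DESeq2, beside 1310, 1211 and 1213 of 15884 genes. By limma-voom they were 0, 1 and 0, beside 1322, 1246 and 1246 genes. They were 1, 0 and 1 with robust dispersion, beside 1151, 1101 and 1083 genes. With only the groups compared in the fit they were 2, 1 and 5. The counts of all genes there were 764 of 15888, 1179 of 15923 and 1026 of 15867. Single libraries moved the edgeR counts. From HFD NoDS to HFD → RC the count was 4 once HFD → RC replicate 16 was left out, beside 1176 of 15876 genes, and 1 without replicate 13 of that group or HFD NoDS replicate 20, 23 or 24, beside 1124 to 1262 genes. In RC NoDS v HFD → RC it was 7 without HFD → RC replicate 13, beside 1080 of 15873 genes, and 0 without RC NoDS replicate 1, 2, 3 or 5, beside 764 to 1065 genes. From RC → HFD to HFD NoDS it was 7 without HFD → RC replicate 16, beside 1151 of 15876 genes, and 1 without RC → HFD replicate 12, beside 1066 of 15877, and from 2 to 4 with any other single library left out.

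Other genes linked to blood, vessels, meninges and the pituitary were set beside the members in 10 lists, of which 53 genes were tested. By edgeR 0 of the 53 passed in each of the 3 main comparisons and from RC NoDS to RC → HFD, and 0 did by DESeq2 or limma-voom. At an unadjusted p under 0.05 the counts were 1 from RC NoDS to HFD NoDS, beside 6.43% of all genes, and 6 from RC → HFD to HFD → RC, beside 5.02%. They were 10 across all 4 groups, beside 7.07%, and 11 from RC NoDS to RC → HFD, beside 5.55%.

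Of 24 further red cell genes, 13 were in the table and 3 averaged at least 5 reads. The most abundant was Bpgm, which makes the red cell regulator of oxygen release but is also active elsewhere, at 1282 reads on average. The summed reads of the list were 1579, 1942, 1726, 1514 and 1725 in RC NoDS, 1523 to 1782 in RC → HFD, 1734, 1714, 1731, 1560 and 1621 in HFD → RC and 1668, 1825, 1655, 1791 and 1651 in HFD NoDS, with Bpgm making up most of each sum. The 8 other heme enzymes, led by Fech at 1120 reads, summed to between 4926 and 5787 reads.

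White blood cell genes were scarce. All 14 were in the table, 4 averaged at least 5 reads, and the most abundant, the neutrophil protein gene S100a9, averaged 9.38 reads. The list summed to 41, 84, 32, 44 and 62 reads in RC NoDS, 0 to 97 in RC → HFD, 94, 77, 75, 24 and 143 in HFD → RC and 38, 61, 1, 59 and 46 in HFD NoDS. Ms4a1, a B cell surface protein, had 0 reads in 18 libraries. The sum had Pearson r of 0.54 and Spearman rho of 0.62 with the summed hemoglobin reads (n = 21). The median log2 fold change of the 4 tested was −1.35 from RC NoDS to HFD NoDS, 0.97 from RC → HFD to HFD → RC and −0.46 from RC NoDS to RC → HFD, beside −0.65, 0.89 and −1.03 for the members. These genes had few reads, and their part in the hemoglobin counts was not tested. The 9 platelet genes, led by Itga2b at 104 reads, summed to between 97 and 346, with Ppbp at 0 in 16 libraries and r of 0.02 with hemoglobin. The medians of the 5 platelet genes tested were −0.20, 0.19 and −0.13 in the same order. The 8 endothelial genes, led by Slc2a1, the glucose carrier of the blood-brain barrier, summed to between 4041 and 5441, with r of 0.07. Of the 5 pericyte genes, the most abundant was Rgs5, and the list summed to between 1449 and 2029.

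Markers of the meninges, the vascular sheets around the brain, varied with the hemoglobin genes over libraries, though not in each comparison of diets. All 9 were in the table, none was at 0 in all libraries, and the most abundant was the growth factor gene Igf2 at 1374 reads on average. The list summed to 2109, 4767, 5794, 3234 and 7205 reads in RC NoDS, 1144 to 3525 in RC → HFD, 3640, 2612, 815, 1098 and 4746 in HFD → RC and 1284, 8239, 3693, 5589 and 4916 in HFD NoDS. HFD → RC replicate 16, the lowest library for hemoglobin, was the second lowest for the meninges. Over the 21 libraries r was 0.64 and rho 0.62 with hemoglobin, 0.71 and 0.67 with Cga and Tshb, and 0.03 and −0.01 with Gh and Prl. From RC NoDS to RC → HFD the median log2 fold change of the 9 meningeal genes was −1.06, beside −1.03 for the 9 members and 0.00 for all genes. It was 0.02 beside −0.65 for the members from RC NoDS to HFD NoDS, and 0.10 beside 0.89 from RC → HFD to HFD → RC. The part of the meninges in the hemoglobin counts was not tested.

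The number of genes detected was also highest in RC NoDS, at 17797 ± 424 (SD, n = 5), beside 16981 ± 778 (n = 6) in RC → HFD, 16654 ± 686 in HFD → RC and 16594 ± 579 in HFD NoDS. Its r with the summed hemoglobin reads was 0.30 and its rho 0.28 (n = 21). Its part in the hemoglobin counts was not tested.

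Gh, which encodes growth hormone, was near 0 in most libraries. It had 2, 4, 0, 0 and 184 reads in RC NoDS, a lowest of 0, a median of 1 and a highest of 480 in RC → HFD, 2003, 0, 4, 1 and 1 in HFD → RC, and 0, 0, 1, 1 and 1 in HFD NoDS. There were 0 reads in 7 of 21 libraries and 10 or fewer in 17. HFD → RC replicate 13 alone held 73.6% of all Gh reads, followed by RC → HFD replicate 12 with 480, RC NoDS replicate 6 with 184 and RC → HFD replicate 10 with 37. The groups overlapped at the low end.

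Prl, which encodes prolactin, had the same kind of pattern in partly different libraries. It had 1, 154, 0, 0 and 20 reads in RC NoDS, a lowest of 0, a median of 0 and a highest of 841 in RC → HFD, 258, 0, 0, 0 and 0 in HFD → RC, and 1, 1, 10, 1 and 0 in HFD NoDS. There were 0 reads in 11 libraries and 10 or fewer in 16, and RC → HFD replicate 12 held 62.2% of all Prl reads. The balance of the hormones differed among the high libraries. HFD → RC replicate 13 had 2003 reads of Gh and 258 of Prl, RC → HFD replicate 12 had 480 and 841, RC NoDS replicate 2 had 4 and 154, and RC NoDS replicate 6 had 184 and 20. Over 21 libraries Gh and Prl had r of 0.68 and rho of 0.40, and r was 0.27 without the 2 libraries farthest from the median of Gh, so the relation rested on those libraries.

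Since single libraries held most reads, the fitted differences of Gh and Prl between groups followed them. For Gh from RC → HFD to HFD → RC the log2 fold change was 2.20 (SE 1.41, adjusted p = 0.999), and it was −5.75 without HFD → RC replicate 13, which leaves 0, 4, 1 and 1 reads in that group, and 5.66 without RC → HFD replicate 12. For Prl it was −1.57 (SE 1.51, adjusted p = 0.999), and 1.98 without RC → HFD replicate 12. The 4 HFD → RC libraries other than replicate 13 had 0 reads of Prl, so no fold is given without that library. From RC NoDS to HFD NoDS, Prl was at −3.66 (SE 2.03, adjusted p = 0.784), and at −0.98 without RC NoDS replicate 2. Without HFD NoDS replicate 21 Prl was at −5.30, a value fitted with 1, 1, 1 and 0 reads left in that group. The HFD NoDS libraries all had 1 read of Gh or fewer, so no fold is given for Gh in that comparison.

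**Figure D2:**
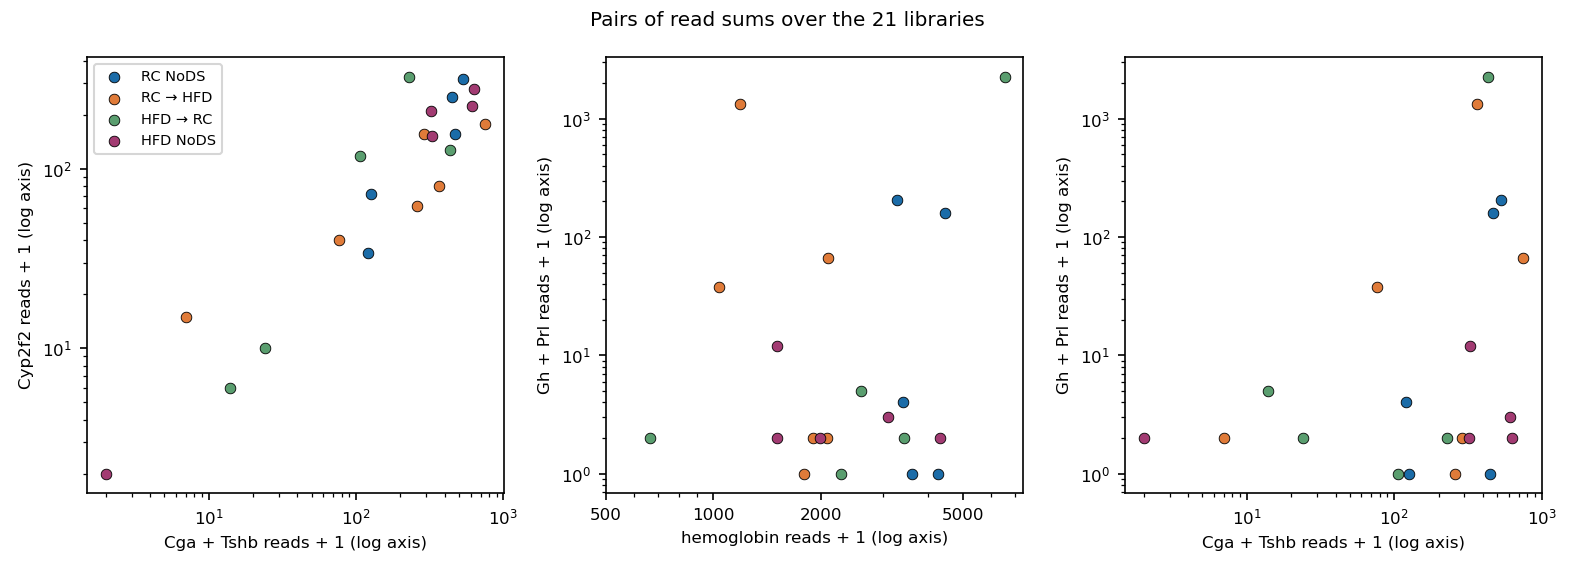
Reads + 1 per library on log axes, 1 point per library coloured by diet group, for Cyp2f2 against the sum of Cga and Tshb (left), and for the sum of Gh and Prl against the summed hemoglobin reads (middle) and against the sum of Cga and Tshb (right). Cyp2f2 follows Cga and Tshb (r = 0.93), while the libraries high in Gh and Prl come from 3 diet groups and have no common level of hemoglobin (r = 0.12).

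Cga and Tshb had another pattern, with reads in most libraries of every group. Cga, the alpha chain shared by the glycoprotein hormones, had 116, 386, 117, 370 and 502 reads in RC NoDS, and a lowest of 6, a median of 237.5 and a highest of 661 in RC → HFD. It had 394, 73, 11, 19 and 181 reads in HFD → RC and 0, 271, 282, 577 and 548 in HFD NoDS. All 4 groups overlapped, and the 4 lowest libraries, HFD NoDS replicate 19, RC → HFD replicate 8 and HFD → RC replicates 15 and 16, came from 3 groups. Cga overlaps 2410114N07Rik on the opposite strand, so its counts carry the same uncertainty as those of Alas2.

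Tshb, the beta chain of thyrotropin, had 3, 79, 8, 75 and 27 reads in RC NoDS, a lowest of 0, a median of 7 and a highest of 89 in RC → HFD, 37, 33, 2, 4 and 48 in HFD → RC, and 1, 51, 44, 31 and 82 in HFD NoDS. It was low where Cga was low, at 1 read in HFD NoDS replicate 19 and 0 in RC → HFD replicate 8. Over the 21 libraries the chains had r of 0.78 and rho of 0.73, r of 0.71 without the 2 libraries farthest from the median of Cga, and r of 0.83 after the mean of each group was taken away. From RC NoDS to HFD NoDS the log2 fold change was 0.18 for Cga (SE 0.790, adjusted p = 0.982) and 0.13 for Tshb (SE 0.999, adjusted p = 0.990). From RC → HFD to HFD → RC it was −0.96 for Cga (SE 0.787, adjusted p = 0.999) and −0.18 for Tshb (SE 0.973, adjusted p = 0.999). With each library left out, the value for Cga from RC → HFD to HFD → RC had its lowest at −1.89, without HFD → RC replicate 13, and its highest at −0.44 when RC → HFD replicate 9 was dropped. The direction of the other 3 values changed with some libraries left out. Cga from RC NoDS to HFD NoDS was at −0.03 without RC NoDS replicate 1 or 3, −0.11 without HFD NoDS replicate 23, −0.07 without HFD NoDS replicate 24, and −1.23 by limma-voom. Tshb in that comparison was at −0.17 and −0.13 without RC NoDS replicates 1 and 3, and −0.26 without HFD NoDS replicate 24. From RC → HFD to HFD → RC, Tshb was at 0.65 and 0.25 without RC → HFD replicates 9 and 11, 0.12 and 0.10 without HFD → RC replicates 15 and 16, and 0.91 by limma-voom.

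The sums of the 3 kinds of gene were weakly related to each other. Over 21 libraries r was 0.12 and rho 0.03 between hemoglobin and the sum of Gh and Prl, 0.38 and 0.34 between hemoglobin and the sum of Cga and Tshb, and 0.34 and 0.35 between the pituitary sums. HFD → RC replicate 13 had both the most hemoglobin reads and the most Gh. RC → HFD replicate 12 had the most Prl and 607 reads of Hbb-b1. RC → HFD replicate 9 had the most Cga and Tshb, with 0 reads of Gh and 65 of Prl.

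Genes of the pituitary beyond the members were compared with these sums. Of 13 anterior pituitary genes 12 were in the table and 6 averaged at least 5 reads. They summed to 288, 440, 252, 499 and 719 reads in RC NoDS, 216 to 959 in RC → HFD, 641, 209, 140, 221 and 480 in HFD → RC and 259, 376, 394, 743 and 644 in HFD NoDS. The most abundant was Pitx1, a factor of pituitary identity, at 115 reads on average. Fshb, the beta chain of follicle stimulating hormone, had at most 292 reads, in RC → HFD replicate 9, which also had the most Cga and Tshb. The list had r of 0.77 and rho of 0.86 with the sum of Cga and Tshb, and r of 0.42 with that of Gh and Prl. In HFD → RC replicate 13, the library with the most Gh, Lhx4 and Neurod4 had 0 reads and Ghrhr had 4. Lhb, the beta chain of luteinizing hormone, overlaps Ruvbl2 on the opposite strand and is uncertain in the same way.

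Of the 4 pars tuberalis genes beyond the members, Eya3 was the most abundant at 723 reads and Mtnr1a, a melatonin receptor, averaged 7.38 with 0 reads in 5 libraries. Their sums ran from 711 to 1151. Of 4 intermediate lobe genes, Pax7, a factor of melanotropes, had 0 reads in 20 libraries, Tbx19 had 25 to 134, and Pomc, also a gene of hypothalamic neurons, had 5012 to 11836.

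By a rule of likeness, the 5 genes with the highest Pearson r to each sum on log2(count + 1), among 15875 genes, were found. For Cga and Tshb 4 of these were Cyp2f2 (r = 0.93, rho = 0.80), Pitx1 (0.92, 0.76), Epcam (0.89, 0.80) and Ces1d (0.86, 0.86). HFD NoDS replicate 19, with 0 reads of Cga, had 1 read of Pitx1, 1 of Cyp2f2, 0 of Epcam, an adhesion protein of epithelia, and 64 of Ces1d. RC → HFD replicate 8, with 6 reads of Cga, had 1 read of Pitx1, 1 of Epcam, 14 of Cyp2f2 and 34 of Ces1d. In all, 14 genes had r over 0.8, and without the 2 farthest libraries r was between 0.78 and 0.90 for the 4 named.

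For hemoglobin the 5 most alike were Stxbp3a (r = 0.82, rho = 0.79), Fuk (0.80, 0.70), Fibp (0.78, 0.83), Nid2 (0.76, 0.72) and Pkd1l2 (0.75, 0.72), and 2 genes had r over 0.8. Stxbp3a, a protein of vesicle docking, ranged only from 130 reads in RC → HFD replicate 10 to 292 in HFD → RC replicate 13. Nid2, a basement membrane protein, ranged from 1 to 131. For Gh and Prl they were 1700101E01Rik (r = 0.69, rho = 0.71), Fech (0.68, 0.57), Fam47e (0.67, 0.71), Slc14a1 (0.66, 0.63) and Ikbip (0.66, 0.71), and 0 genes had r over 0.8. Without the 2 farthest libraries r was 0.39 for Fech, the last enzyme of heme synthesis, 0.43 for Slc14a1, a urea carrier, 0.58 for 1700101E01Rik and 0.64 for both Fam47e and Ikbip. All libraries share a common depth, and with 15875 genes and 21 libraries some high values arise by selection alone.

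Among the lists of the hypothalamus and its cell types, genes did pass. Of 146 listed genes beyond the members 102 were tested. From RC NoDS to HFD NoDS 4 passed by edgeR. Agrp (log2 fold change −0.97, adjusted p = 0.0611) and Npy (−1.27, 8.07e-05), the appetite-raising peptides of the arcuate nucleus, fell, and Cartpt (0.88, 0.00122) and Trh (1.79, 2.35e-07), the releasing hormone for thyrotropin, rose. From RC → HFD to HFD → RC 1 passed, Npy (0.94, 0.0142). Across all 4 groups 6 passed, Agrp, Npy, Cartpt and Trh with Gfap and Mobp. In RC NoDS v RC → HFD, where the hemoglobin genes did not overlap, 3 passed by edgeR, Agrp (−1.24, adjusted p = 0.00173), Npy (−1.31, 2.63e-05) and Trh (1.13, 0.000721). Trh thus rose in HFD NoDS while Tshb, whose product it releases, was at 0.13 (adjusted p = 0.990), and the difference between them was not tested. Agrp had r of 0.70 and rho of 0.75 with the summed hemoglobin reads over 21 libraries, and the part of either in the other was not tested. Of 22 genes tested in the lists of neurons, tanycytes, choroid plexus and microglia, 0 passed in the 3 main comparisons by edgeR, DESeq2 or limma-voom, and 3, 2 and 6 had an unadjusted p under 0.05, beside 6.43%, 5.02% and 7.07% of all genes. In the step from RC NoDS to RC → HFD 7 of the 22 did, beside 5.55%, with 0 called by edgeR and limma-voom and 1 by DESeq2, the neuronal enolase gene Eno2. The median log2 fold change of the 6 tanycyte genes was −0.50 there. The 4 sums ran from 39183 to 50722, 3347 to 6336, 986 to 1398 and 2878 to 3855 reads. The astrocyte list summed to between 20323 and 27648.

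The 5 oligodendrocyte genes, which serve myelin, had a positive median log2 fold change from RC → HFD to HFD → RC, as the members had. It was 0.73, beside 0.89 for the members and 0.00 for all genes, and 0.58 from RC NoDS to HFD NoDS, beside −0.65 for the members. The most abundant was Mbp, and none of the 5 was at 0 in all libraries. The list summed to 32809, 38399, 47713, 33142 and 48773 reads in RC NoDS, 38396 to 56598 in RC → HFD, 93476, 126423, 71230, 40601 and 57704 in HFD → RC and 51251, 88886, 46474, 86412 and 39730 in HFD NoDS. Its r with the summed hemoglobin reads was 0.26 and its rho 0.15 (n = 21). Its part in the hemoglobin counts was not tested.

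In RPKM, which allows for exon length, the 9 genes had an order that the raw counts do not give. Hbb-b1 was at 102 ± 52.4 (SD, n = 21), Hba-a1 at 46.5 ± 26.5, Hba-a2 at 37.7 ± 19.1 and Hbb-b2 at 21.6 ± 12.7. Below them were Cga at 16.5 ± 13.02, Gh at 9.17 ± 31.4, Prl at 4.39 ± 12.9, Tshb at 3.12 ± 2.91 and Alas2 at 1.55 ± 1.04. From Hba-a1 downward each neighbouring pair in that order differed by less than the larger of their SDs. Gh had a median of 0.0708 and a highest value of 142 on this scale. Snap25 was at 90.5 ± 9.03, within 1 SD of Hbb-b1.

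Prl and Gh had among the highest estimates of spread between libraries of the same diet, but these ranks are tied to how the 2 genes came to be tested. Over all libraries Gh had a median of 1 read and Prl a median of 0. Both passed the filter on mean reads only through the few libraries high in them. Their ranks thus restate that a few libraries held most of their reads. The biological coefficient of variation within groups, as edgeR estimates it, was 2.16 for Prl, the highest of 15884 genes, and 1.91 for Gh, ranked 3, beside a median of 0.176 for all genes. Between them was Tff2, a secreted trefoil peptide, at 2.02. Tshb was at 1.08 (rank 654) and Cga at 0.929 (rank 1114). Alas2 was at 0.524, Hba-a1 at 0.401, Hba-a2 at 0.395, Hbb-b2 at 0.394 and Hbb-b1 at 0.355, from the 74.9 to the 82.4 percentile.

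**Figure D3:**
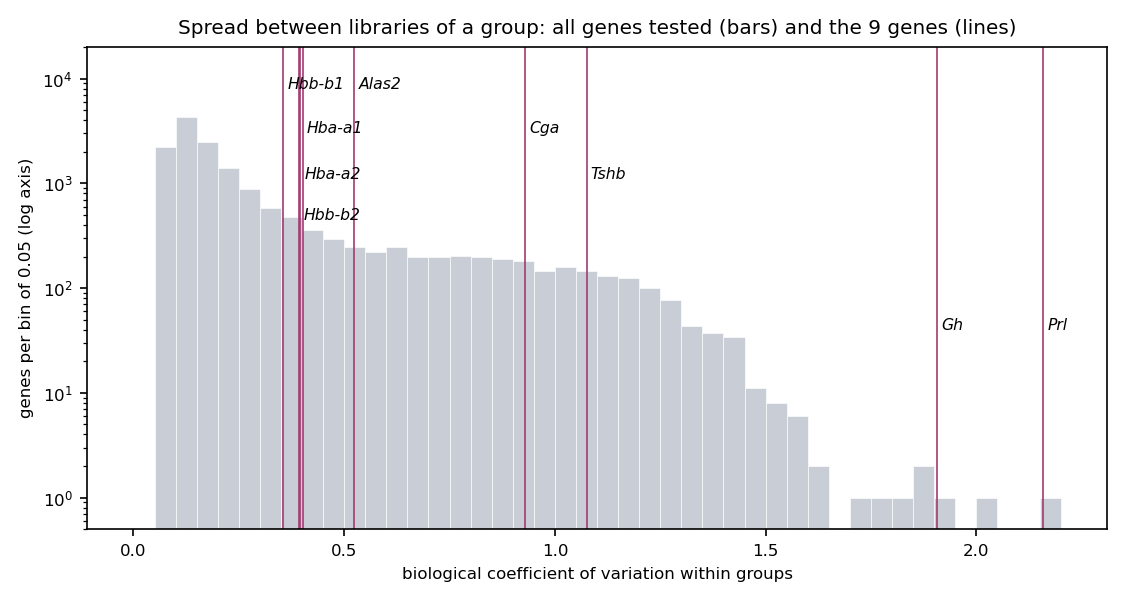
Number of genes (vertical axis, log scale) by biological coefficient of variation within diet groups (horizontal axis) for 15884 genes, with the 9 members marked. Prl at 2.16 and Gh at 1.91 are at the far right, and the hemoglobin genes lie between 0.355 and 0.401.

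On the mm9 genome (NCBIM37) Hba-a1 (ENSMUSG00000069919) lies at chr11:32183511-32184465 and Hba-a2 (ENSMUSG00000069917) at chr11:32196489-32197301, both on the plus strand. Hbb-b1 (ENSMUSG00000052305) lies at chr7:110975048-110976610 and Hbb-b2 (ENSMUSG00000073940) at chr7:110961038-110962510, both on the minus strand. Alas2 (ENSMUSG00000025270) is at chrX:146981918-147005181, Gh (ENSMUSG00000020713) at chr11:106161585-106163179, Prl (ENSMUSG00000021342) at chr13:27149439-27157073, Cga (ENSMUSG00000028298) at chr4:34841028-34854619 and Tshb (ENSMUSG00000027857) at chr3:102581321-102586637. Gh and the alpha globins share a chromosome.

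Promoters were read since the counts of the hemoglobin genes followed each other from library to library, as did those of Cga and Tshb. In a table of promoters from RefSeq on GRCm38.p6, which is not complete, 6 of the 9 members were matched by symbol, and Hbb-b1, Hbb-b2 and Gh were not in that table and were not searched. The 250 bases before the start were searched on both strands, and shares are of 32851 promoters of that length. The TATA box was sought as TATAAA, found in 12.4% of promoters, and as TATAAG, found in 6.65%. The CCAAT box was in 33.8%. The GATA motif was sought as AGATAA, in 9.99%, and as TGATAA, in 7.94%. The CACC motif was sought as CCACACCC, in 3.20%, and as CCACCC, in 28.1%. The Pitx motif TAATCC was in 6.25%. The D element was sought as TTATGTAA, in 0.819%, and as TTACGTAA, in 0.113%. The CRE was sought as TGACGTCA, in 1.55%, and as TGACGTAA, in 0.447%. Hba-a1 and Hba-a2 were identical over 247 aligned bases, offset by 3, so 1 of them is shown. Hba-a1 held TGATAA from base 183 to 178 before the start, CCAAT from 88 to 84, CCACCC from 61 to 56 and TATAAG from 27 to 22. Alas2 held AGATAA on the opposite strand at 86 to 81 and 3 overlapping copies of CCACCC on the opposite strand from 40 to 25, with TATAAG and, on the other strand, TATAAA overlapping near 209 to 202. Cga held CCAAT at 109 to 105 and TATAAA at 30 to 25, and Tshb held AGATAA at 58 to 53 and TATAAA at 27 to 22, with overlapping TATAAA on both strands from 250 to 243. Prl held CCAAT at 165 to 161 and, on the opposite strand, at 79 to 75, with overlapping TATAAA on both strands from 26 to 19. In these 6 members the Pitx, D element and CRE letters and CCACACCC were not found, which says only that these letters were not in the window. The lines that follow give the promoters of Hba-a1 (chr11:32283422-32283671, plus strand), Alas2 (chrX:150547167-150547416, plus), Cga (chr4:34893529-34893778, plus) and Tshb (chr3:102782715-102782964, minus), 5′ to 3′, with the matches in capitals. That of Prl is not shown, since Prl was at 0 or 1 reads in most libraries.
Hba-a1: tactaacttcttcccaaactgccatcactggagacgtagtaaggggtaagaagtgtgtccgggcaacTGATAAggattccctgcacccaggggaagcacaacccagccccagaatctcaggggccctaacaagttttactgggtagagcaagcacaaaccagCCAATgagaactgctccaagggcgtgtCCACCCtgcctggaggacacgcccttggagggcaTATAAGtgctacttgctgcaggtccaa
Alas2: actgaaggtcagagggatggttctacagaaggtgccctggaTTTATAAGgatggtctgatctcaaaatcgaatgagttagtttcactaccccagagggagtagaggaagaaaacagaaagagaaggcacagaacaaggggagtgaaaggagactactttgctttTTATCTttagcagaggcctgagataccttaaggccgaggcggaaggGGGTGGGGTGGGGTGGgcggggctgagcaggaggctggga
Cga: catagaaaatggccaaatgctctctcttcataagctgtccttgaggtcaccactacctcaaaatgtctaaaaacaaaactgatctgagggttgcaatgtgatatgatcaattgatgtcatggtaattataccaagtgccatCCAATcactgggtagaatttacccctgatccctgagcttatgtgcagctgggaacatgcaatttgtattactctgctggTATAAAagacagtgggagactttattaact
Tshb: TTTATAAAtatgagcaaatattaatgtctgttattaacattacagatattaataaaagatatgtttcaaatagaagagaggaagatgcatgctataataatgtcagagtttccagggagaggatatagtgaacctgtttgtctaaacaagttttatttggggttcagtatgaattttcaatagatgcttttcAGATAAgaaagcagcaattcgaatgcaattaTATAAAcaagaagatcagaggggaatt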

How the data were processed

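RNA-seq counts of reads per gene from 21 libraries of mouse ventral hypothalamus were used as deposited by the authors. Per the submitters' processing notes, Picard 2.7.1 and STAR 2.5.1b were used on the mm9 genome, and libraries were re-sampled to a common depth. Genes averaging at least 5 reads were tested with edgeR 4.0.16 (TMM, quasi-likelihood F-test, 4 group means) under R 4.3.3, with p-values adjusted over all genes by the Benjamini-Hochberg method and a threshold of 0.15. DESeq2 1.42.0 and limma-voom (limma 3.58.1) were alternatives, with other filters, no scaling, robust dispersion, summed globin pairs, fits to the groups compared only, and each library left out. Gene positions and exon lengths came from GENCODE vM1 gene models on NCBIM37. Genes named were the 9 members, list genes that passed, the most abundant and the absent markers of each list, and the 5 most correlated genes per sum. Each SE of a fold change was worked back from the fold change and its F statistic. Correlations used log2(count + 1) and have no p. Members and lists were chosen with earlier results of these data known. On simulated data 200 of 15884 genes were changed 4-fold between RC NoDS and HFD NoDS. There edgeR recovered 83% with 21 false calls, DESeq2 85% with 63 and limma-voom 80.5% with 16. Calculations used numpy 2.4.6 and scipy 1.17.1 with pandas 2.3.3 in Python 3.11.15, and plots matplotlib 3.10.9.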

Additional observations from a re-analysis of the deposited data

Results flagged for a closer look

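In 7 of 36 sets of a gene and a diet group, 1 library lay far from the others of its group, and all 7 were in Gh or Prl. For Gh these were RC NoDS replicate 6 with 184 reads, RC → HFD replicate 12 with 480 and HFD → RC replicate 13 with 2003. For Prl they were RC NoDS replicate 2 with 154 reads, RC → HFD replicate 12 with 841, HFD → RC replicate 13 with 258 and HFD NoDS replicate 21 with 10. Chance flags about 1 in 20 groups where values follow a normal distribution, and the rate for skewed counts near 0 was not measured.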

How the results depend on the processing

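Of 450 values of the fold changes of the hemoglobin genes and Alas2 under the alternatives, 0 changed direction and 9 came to pass the threshold. Of 234 values for the hormone genes, 15 changed direction, and the cause was not tested. With each library left out, the log2 fold change from RC NoDS to HFD NoDS ran from −0.11 to 0.50 for Cga and from −0.26 to 0.56 for Tshb, and from RC → HFD to HFD → RC it ran from −5.75 to 5.66 for Gh, −10.26 to 1.98 for Prl and −0.55 to 0.65 for Tshb. The −10.26 was fitted with every remaining HFD → RC library at 0 reads of Prl and is no bound, and the −5.75 with 0, 4, 1 and 1 reads of Gh left there. Limma-voom gave −1.23 for Cga in the former comparison and 0.91 for Tshb in the latter. The number of members past the threshold was 0 to 2 for RC → HFD v HFD → RC, 0 to 3 across all 4 groups and 0 to 2 for RC NoDS v RC → HFD with each library left out, and 4 in the latter with only its 2 groups fitted. The number of other listed genes past the threshold for RC → HFD v HFD → RC was 1, and it was 2 with no filter, 2 by DESeq2, 0 with robust dispersion and 1 to 6 with each library left out. At the start 64 alternatives were set and 14 were added after seeing the data, among them leaving out the 4 libraries with over 100 reads of Gh or Prl, which gave 0 members past the threshold in each comparison, as with all libraries. The members at an unadjusted p under 0.05 went from 5 of 9 to 1 of 7 tested for RC → HFD v HFD → RC, beside 666 of 15850 genes. They went from 7 of 9 to 3 of 7 across all 4 groups, beside 821, and from 2 of 9 to 1 of 7 for RC NoDS v HFD NoDS, beside 865. For RC NoDS v RC → HFD they were 5 of 9 with those libraries, beside 881 of 15884 genes. Without them they were 5 of 7, beside 417 of 15850. Gh and Prl have no value without those 4 libraries, nor Tshb under the High Filter, since they fell below the filter. Depth limits the low genes: a count of 0 allows up to 3 reads.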
